A study of Mus musculus with 6 samples.

Results

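The 9 genes described here encode 4 neurotrophic ligands (Ntf3, Bdnf, Gdnf and Artn) and 5 of their receptors (Ntrk2, Ntrk3, Ngfr, Gfra1 and Ret). They were chosen by name, all 9 were found among the 33697 genes of the deposited matrices, and their levels were read in every library and in every class of cells set apart by marker genes. The cells had been sorted as live and tdTomato+ from gut lamina propria. The mice were Flare-TSLP, a reporter strain in which the red fluorescent protein tdTomato was placed at the Tslp locus in C57BL/6 embryonic stem cells, so every library carries the same allele and there is no wild-type group; the labels name no treatment. The 6 libraries came from the proximal small intestine (proximal jejunum, 2 libraries), the distal small intestine (distal ileum, 2 libraries), the cecum (1 library) and the large intestine (1 library) of mice kept on chow. The last 2 are called the large bowel here. The labels give no age.

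Neurotrophins are secreted proteins that keep neurons alive and guide their processes. Ntf3 encodes neurotrophin-3 and Bdnf encodes brain-derived neurotrophic factor. Each acts mainly through a receptor tyrosine kinase, TrkC (gene Ntrk3) for the former and TrkB (gene Ntrk2) for the latter, while the p75 receptor (Ngfr) binds all neurotrophins. The GDNF family works differently: GDNF binds the membrane-anchored co-receptor GFRα1 (Gfra1), artemin (Artn) binds a related co-receptor, and both complexes signal through the tyrosine kinase RET (Ret). In the gut GDNF and RET are needed to form the enteric nervous system, and RET is also found on some innate lymphoid cells.

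The libraries held 109675337 to 206827504 unique molecular identifiers (UMIs, tags that mark single captured transcripts) on genes. After filters on cells and doublets, 93558 cells remained, 11174 to 19073 in a library, with medians of 6606.5 to 9233 UMIs per cell. Pairs of libraries shared 38 to 118 cell barcodes, at most 0.609% of the smaller library. No table pairs the hashtags of these libraries with mice, so each library counted as 1 sample, and the p-values below measure the spread between libraries, which may be in part technical. A class name below stands for the cells that passed a gate on marker genes, none of which is among the 9 genes; 79203 cells fell in a marker class, 5.45% of which lay within 0.02 of the gate's limits. The gate held 9283 subepithelial cells (fibroblasts next to the epithelium), 2399 telocytes (the Foxl1 and Lgr5 fibroblasts at the villus tip and around crypts), 41135 trophocytes (the Grem1 fibroblasts below crypts), 1160 myofibroblasts, 967 pericytes, 160 glial cells, 15535 lymphatic and 1401 blood endothelial cells. A class of 851 cells passed the pericyte gate but carried Pdgfra, a fibroblast gene. It is called Pdgfra+ Rgs5+ stromal cells after those genes and was set apart after its values had been seen. The 967 pericytes are the cells left by that split, so the pericyte tests below rest on it too. Levels are given in CPM, the UMIs of a gene in each 1000000 UMIs summed over the cells of a class in a library, and they are given only for classes with at least 20 cells in that library unless stated. The counts come from the ends of transcripts, so levels of the same gene were compared between classes and never levels of different genes. A sum over a class cannot tell fewer cells with the transcript from less RNA in each cell.

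The marker genes named next belong to the gate itself, so their levels describe the classes and cannot test their names. In the glial gate Sox10 averaged 228 CPM and S100b 273 CPM, in pericytes Rgs5 averaged 6419 CPM, in myofibroblasts Myh11 averaged 3892 CPM, and in trophocytes Grem1 averaged 755 CPM. Pdgfra averaged 1919 CPM in telocytes against 388 CPM in subepithelial cells, but telocyte Lgr5 ranged from 19.3 to 1000.3 CPM, with both large bowel libraries at the low end. Dkk2, a marker of the trophocyte gate, likewise ranged from 12.0 to 1031 CPM and was lowest in the large bowel. No tdTomato UMI was found in glia of the 4 small intestinal libraries, although the sort was for tdTomato protein. The study removed clusters with too few tdTomato+ cells, whereas classes without tdTomato UMIs were kept here.

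Of the 4 ligands, Ntf3 and Gdnf had the most similar levels across classes. Their promoters are printed for that reason, as the 250 bases before the start of the canonical transcript in GENCODE, on the mouse GRCm39 build, 5′ to 3′ on the strand of the gene, with GC boxes (GGGCGG, the only motif found) in capitals. The Ntf3 sequence is chr6:126141947-126142196 on the minus strand and the Gdnf sequence is chr15:7840077-7840326 on the plus strand.
Ntf3: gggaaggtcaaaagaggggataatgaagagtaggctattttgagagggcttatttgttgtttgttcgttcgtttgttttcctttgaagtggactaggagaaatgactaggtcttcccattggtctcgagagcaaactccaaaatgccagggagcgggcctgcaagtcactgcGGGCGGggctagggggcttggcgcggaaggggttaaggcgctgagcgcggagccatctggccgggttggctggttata
Gdnf: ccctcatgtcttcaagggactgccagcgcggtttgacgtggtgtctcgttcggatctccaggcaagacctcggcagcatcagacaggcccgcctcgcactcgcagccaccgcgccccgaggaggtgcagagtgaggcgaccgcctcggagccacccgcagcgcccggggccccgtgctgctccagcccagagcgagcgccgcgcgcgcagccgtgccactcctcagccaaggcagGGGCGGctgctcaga
Each held 1 GC box. Both strands were also searched for a TATA box (TATAAA), an E-box (CACGTG) and a cAMP response element (TGACGTCA), and neither sequence held any of these. Of 21770 promoters of this length, 36.3% held GGGCGG, 11.9% TATAAA, 6.26% CACGTG and 1.69% TGACGTCA, so a GC box was common and the match is only a description. The Ntf3 gene lies at chr6:126078375-126143873 on the minus strand and Gdnf at chr15:7840327-7867060 on the plus strand. The printed Ntf3 stretch thus lies inside the annotated gene, and which start these cells use was not tested.

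**Figure D1:**
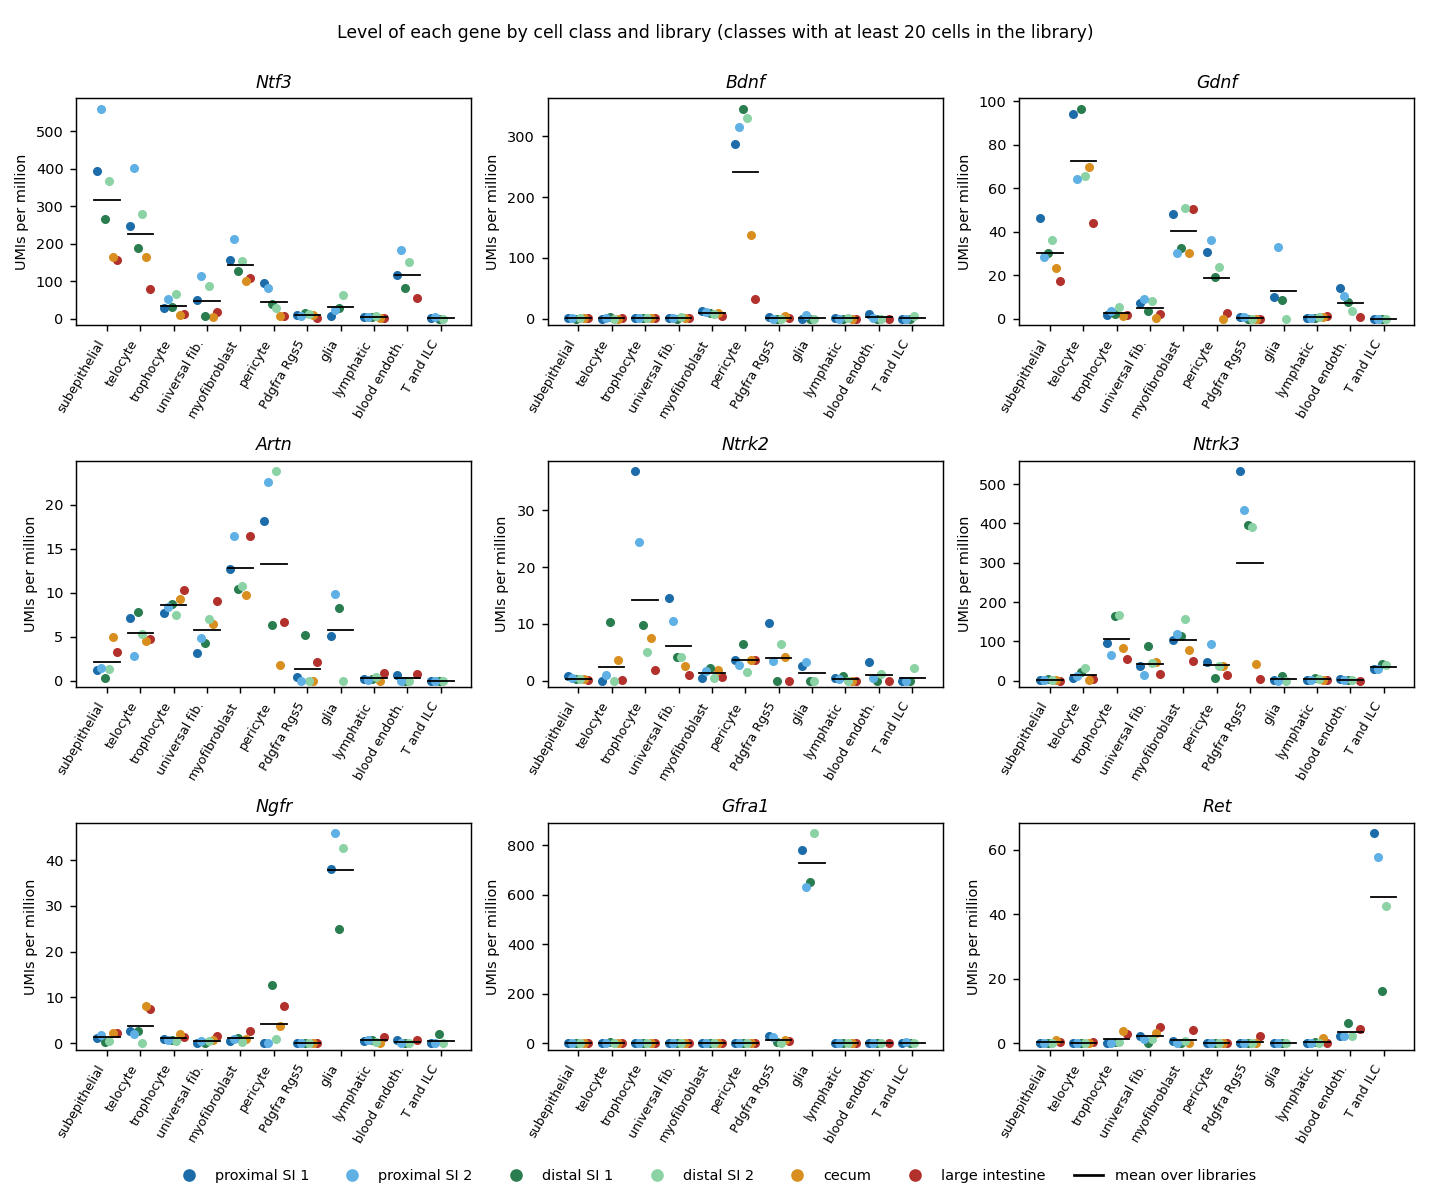
Level of each of the 9 genes, in CPM, by class of cells, with 1 point for each library that held at least 20 cells of the class. Ntf3 stood highest in subepithelial cells (157 to 560.1), Gdnf in telocytes (43.7 to 96.4), Bdnf in pericytes (32.7 to 345), Gfra1 in glia (632 to 847) and Ret in T and innate lymphoid cells (16.1 to 65.1).

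Ntf3 was a transcript of fibroblasts near the epithelium. In subepithelial cells its level was 394 and 560.1 CPM in the proximal libraries 1 and 2, 265 and 369 CPM in the distal libraries 1 and 2, 164 CPM in the cecum and 157 CPM in the large intestine (318 ± 155, SD, n = 6). In trophocytes the same libraries, in the same order, gave 27.5, 52.9, 31.4, 65.9, 10.1 and 11.4 CPM. Every subepithelial value lay above every trophocyte value, and the second library of each small intestinal region was above the first in both classes. The difference was 3.23 ± 0.22 on the log2 scale (SE; edgeR's quasi-likelihood test with library as a block, Benjamini-Hochberg adjusted p = 5.28e-05). At least 1 Ntf3 UMI was found in 55.6% to 93.4% of subepithelial cells, against 0.424% to 3.18% of lymphatic endothelial cells, a class that served as the background for free RNA; median depths were 7143 to 9880 UMIs in the former and 4629 to 7542.5 in the latter. In barcodes with at most 100 UMIs, which hold free RNA, Ntf3 stood at 40.7 to 87.9 CPM, above the trophocyte value of every library. Lymphatic endothelial cells of the same libraries held 0.736 to 6.39 CPM, less than trophocytes in each, and the difference between subepithelial cells and trophocytes held when 10% of each sum was subtracted along the profile of free RNA.

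Telocytes and myofibroblasts also carried Ntf3. The myofibroblast gate rested mostly on contractile genes such as Myh11, Actg2, Des and Cnn1, so it may also hold smooth muscle cells. Telocyte values, in the order proximal 1 and 2, distal 1 and 2, cecum and large intestine, were 247, 402, 188, 279, 163 and 78.2 CPM. Myofibroblast values were 155, 214, 127, 154, 101 and 107 CPM. Neither range overlapped that of trophocytes, and each exceeded it by the same test and threshold (2.70 ± 0.21, adjusted p = 1.38e-05, and 2.23 ± 0.25, adjusted p = 7.79e-05). The telocyte and subepithelial ranges overlapped, and telocytes were lower within libraries by -0.54 ± 0.12 (adjusted p = 0.0193). That last call was lost without proximal library 1 or 2, without the block (adjusted p = 0.57), under a stricter gate, and with clusters, which also left out both large bowel libraries. Ntf3 was not limited to fibroblasts: blood endothelial cells held 115, 182, 81.3 and 152 CPM in the small intestinal libraries and 56.2 CPM in the large intestine, with a UMI in 30.2% to 62.0% of cells. By mean level the order of these classes was subepithelial, telocyte, myofibroblast, blood endothelial, universal fibroblast (46.7 CPM), pericyte (43.0 CPM), trophocyte and glia (30.9 CPM), and each neighbor in that order overlapped the next. Other fibroblasts, the collagen-high cells without a class, held 137 CPM (41.6 to 267) and stood between myofibroblasts and blood endothelial cells. Pericytes and trophocytes did not differ past the threshold (0.06 ± 0.37 on the log2 scale, adjusted p = 0.922). The sign turned in 8 of 16 alternatives. When the Pdgfra+ Rgs5+ cells were counted as pericytes, the difference was -0.84 and was called.

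Within the subepithelial gate, cells higher for Lrat and Frmd5 were set beside those higher for Cxcl14, Il34 and Itga8 of the same library. Ntf3 was 440.2 against 379 CPM and 566 against 553 CPM in the proximal libraries, and 329 against 259 CPM and 455 against 343 CPM in the distal ones. Gdnf was 49.2 against 45.4, 29.1 against 27.6, 62.7 against 26.9 and 43.7 against 33.7 CPM. Both genes were higher in the former cells in all 4 small intestinal libraries, by little in proximal library 2, a difference that was not tested. The genes of this split were chosen with earlier results of these data known, and Cxcl14 is also a marker of the subepithelial gate. The direction is therefore only a description. Cells higher for Lrat and Frmd5 numbered only 8 in the cecum library and 2 in that of the large intestine. Of all Ntf3 UMIs in kept cells (61342), 39.5% came from subepithelial cells, which were 9.92% of the cells, 23.5% from other fibroblasts, which were 14.9%, and 23.4% from trophocytes, which were 44.0%.

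**Figure D2:**
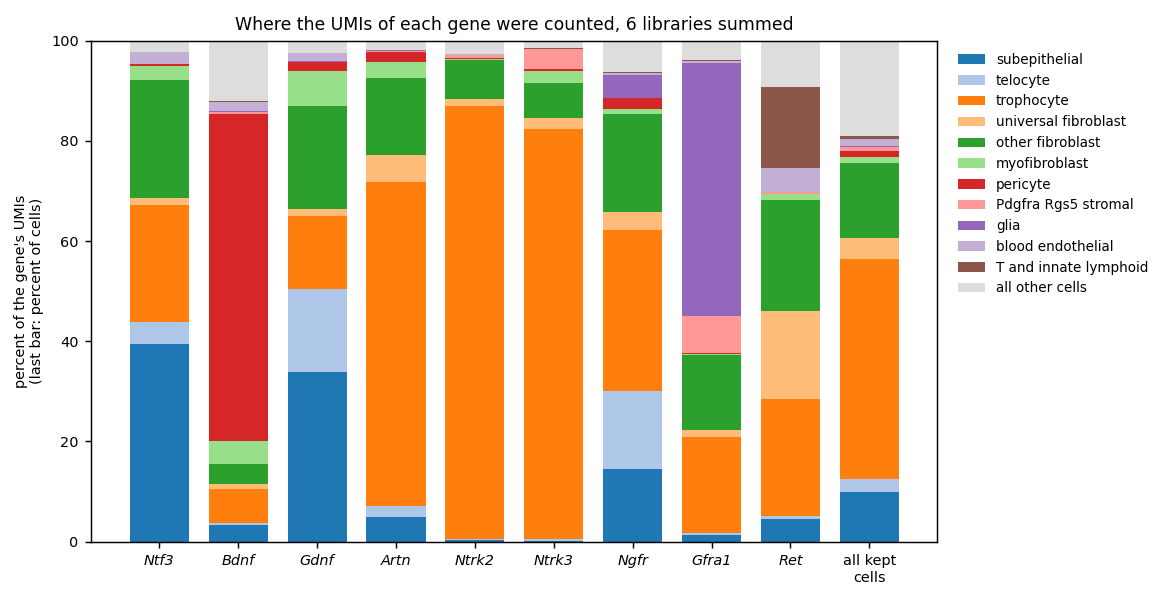
Share of all UMIs of each gene (percent, stacked bars from 0) that came from each class of cells, over the kept cells of all 6 libraries, beside the share of cells. Subepithelial cells gave 39.5% of the Ntf3 UMIs, pericytes 65.3% of the Bdnf UMIs, glia 50.4% of the Gfra1 UMIs and trophocytes 81.9% of the Ntrk3 and 86.3% of the Ntrk2 UMIs.

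Gdnf, the ligand of GFRα1 and RET, was highest in telocytes. Its telocyte level was 94.3 and 64.2 CPM in the proximal libraries, 96.4 and 65.4 CPM in the distal libraries, 69.5 CPM in the cecum and 43.7 CPM in the large intestine (72.2 ± 20.0, SD, n = 6). Subepithelial cells held 46.4, 28.4, 29.9, 36.0, 23.2 and 17.4 CPM in the same order. In each library the telocyte level was the higher one, although the ranges overlapped between libraries, and the difference was 1.24 ± 0.12 on the log2 scale (adjusted p = 0.00057). Myofibroblasts held 30.1 to 50.9 CPM. Trophocytes held 1.15 to 5.53 CPM, below every value of these 3 classes. Against trophocytes the difference was 4.73 ± 0.32 in telocytes (adjusted p = 7.09e-06), 3.93 ± 0.28 in myofibroblasts (adjusted p = 4.38e-06) and 3.48 ± 0.29 in subepithelial cells (adjusted p = 0.000121). These comparisons share their trophocyte sums. Pericytes held 19.2 to 36.2 CPM in the small intestinal libraries but 0 and 2.55 CPM in the cecum and large intestine. Free RNA held 3.62 to 14.9 CPM of Gdnf, more than the trophocyte sums of every library, while lymphatic endothelial cells held 0.361 to 1.28 CPM.

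Bdnf, the ligand of TrkB, was a pericyte transcript. The pericyte level was 288 and 316 CPM in the proximal libraries, 345 and 329 CPM in the distal libraries, 138 CPM in the cecum and 32.7 CPM in the large intestine. The 4 small intestinal values were close to each other and both large bowel values lay below them, with 102 and 299 cells behind the last 2. Trophocytes held 0.104 to 0.656 CPM. The difference of 9.40 ± 0.37 on the log2 scale (adjusted p = 7.55e-09) was the largest of any member in a comparison with trophocytes apart from Gfra1 in glia. A Bdnf UMI was found in 50.6% to 66.4% of small intestinal pericytes, 27.5% of those of the cecum and 11% of those of the large intestine, against at most 0.129% of lymphatic endothelial cells; median depths were 4811 to 7178 and 4629 to 7542.5 UMIs. These 967 cells gave 65.3% of the 2091 Bdnf UMIs. The Pdgfra+ Rgs5+ stromal cells, which shared the pericyte marker Rgs5, held only 0 to 4.20 CPM. Myofibroblasts held 4.6 to 11.7 CPM, above trophocytes by 4.53 ± 0.34 (adjusted p = 5.93e-06), with no overlap. In subepithelial cells, telocytes and glia Bdnf did not pass the filter on low counts (at most 6.55 CPM).

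Artn, which encodes artemin, was low in every class and spread over several. Pericytes had the highest mean of the classes described (13.2 ± 9.42 CPM, 1.84 to 23.8) and did not differ from trophocytes past the threshold (0.65 ± 0.40, adjusted p = 0.214). Of 16 alternatives 2 called this difference and 1 turned its sign. Trophocytes held 7.68, 8.36, 8.71, 7.48, 9.28 and 10.3 CPM (8.64 ± 1.06, SD, n = 6), close to each other in all libraries, and gave 64.6% of its 4728 UMIs. Subepithelial cells held 1.21, 1.40, 0.342, 1.33, 5.01 and 3.32 CPM, below trophocytes in all libraries (-2.38 ± 0.37, adjusted p = 0.00187). Free RNA held 5.52 to 9.22 CPM, about the trophocyte level, while lymphatic endothelial cells held at most 0.855 CPM. Telocytes were also lower than trophocytes (-1.05 ± 0.23, adjusted p = 0.00563), and their range of 2.83 to 7.81 CPM overlapped it. The telocyte call was lost without the cecum and large intestine, and with clusters in place of the gate, a setting that left out the same libraries. Myofibroblasts held 9.78 to 16.4 CPM and exceeded trophocytes by 0.50 ± 0.15 (adjusted p = 0.0214), a call lost in 6 of the alternatives.

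Ntrk3, the receptor gene of the Ntf3 product (TrkC), was low in subepithelial cells, where Ntf3 was highest. It stood in trophocytes at 97.1 and 66.3 CPM in the proximal libraries, 165 and 167 CPM in the distal libraries, 83.4 CPM in the cecum and 55.8 CPM in the large intestine. Subepithelial cells held 0.310 to 4.28 CPM. The groups did not overlap and differed by -6.23 ± 0.24 on the log2 scale (adjusted p = 6.93e-06). Telocytes, at 2.71 to 32.0 CPM, were below trophocytes (-3.57 ± 0.28, adjusted p = 1.56e-05) and above subepithelial cells (2.78 ± 0.42, adjusted p = 0.00352). Myofibroblasts held 104, 119, 113, 158, 78.3 and 49.2 CPM, overlapping the trophocytes but for the lowest value (-0.08 ± 0.15, adjusted p = 0.735), and carried Ntf3 as well. The highest Ntrk3 levels were those of the Pdgfra+ Rgs5+ stromal cells, at 533, 435, 396 and 391 CPM in the small intestine but 42.0 CPM in the cecum and 5.02 CPM in the large intestine. That class was drawn up with its values in view and is given without a test. T and innate lymphoid cells held 28.9 to 42.4 CPM in the small intestinal libraries. Pericytes were below trophocytes (-1.37 ± 0.37, adjusted p = 0.0102), but the sign turned, with no call, when clusters replaced the gate (0.02) and when the Pdgfra+ Rgs5+ cells were counted as pericytes (0.09). The pericytes tested are what was left after those Ntrk3-high cells had been set apart with values in view. The pericyte call depends on that step, and nothing is concluded from it. Trophocytes gave 81.9% of the 55666 UMIs.

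Ntrk2, which encodes TrkB, gave most of its UMIs in trophocytes. Its trophocyte level was 36.8 and 24.5 CPM in the proximal libraries, 9.74 and 5.10 CPM in the distal libraries, 7.56 CPM in the cecum and 1.94 CPM in the large intestine. Universal fibroblasts, the Pi16 and Dpp4 cells thought to give rise to others, held 14.6, 10.5, 4.24, 4.10, 2.62 and 1.09 CPM. Both classes were highest in the proximal libraries and lowest in the large intestine. Subepithelial cells held at most 0.808 CPM and differed from trophocytes by -5.10 ± 0.34 (adjusted p = 4.71e-05). Telocytes (-3.20 ± 0.67, adjusted p = 0.00481), myofibroblasts (-3.77 ± 0.40, adjusted p = 5.34e-05) and pericytes (-1.80 ± 0.49, adjusted p = 0.0112) were also lower. The pericyte call was lost without proximal library 1 or 2. Pericytes, where Bdnf was highest, held 1.49 to 6.39 CPM of this receptor, and trophocytes gave 86.3% of the 7246 Ntrk2 UMIs. The gate for interstitial cells of Cajal, which caught collagen-high cells and is not described further, had a higher mean (67.8 ± 112 CPM, SD, n = 5) that ranged from 0 to 266 CPM.

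Gfra1 and Ngfr were highest in the glial gate. Glia, 0.171% of the cells, gave 50.4% of the Gfra1 UMIs and 4.51% of the 953 Ngfr UMIs. Of the Ngfr UMIs 32.1% came from trophocytes, 19.4% from other fibroblasts and 15.5% from telocytes. These classes were 44.0%, 14.9% and 2.56% of the cells. In the 152 glial cells of the 4 small intestinal libraries Gfra1, the co-receptor of GDNF, stood at 779.6 and 632 CPM in the proximal and 649 and 847 CPM in the distal libraries. Trophocytes held 0.408 to 2.24 CPM over all libraries. The difference was 9.79 ± 0.23 on the log2 scale (adjusted p = 5.19e-45), and 85.0% to 93.5% of glial cells had a Gfra1 UMI, against at most 0.16% of lymphatic endothelial cells in those libraries (median depths 5138 to 7419 and 5536.5 to 6749 UMIs). The 8 glial cells of the large intestine, too few for the test, held 426 CPM. Ngfr, the p75 receptor, stood at 38, 45.8, 25 and 42.7 CPM in the same glial sums, which rest on 15, 14, 6 and 6 UMIs, against 0.553 to 0.880 CPM in trophocytes of those libraries (5.51 ± 0.51, adjusted p = 1.98e-14). Glial and trophocyte values did not overlap for either gene. Outside glia, Gfra1 reached 2.16 to 30.2 CPM in Pdgfra+ Rgs5+ stromal cells. In pericytes Ngfr ranged from 0 to 12.8 CPM (mean 4.27), on 22 UMIs in all. Ngfr reached 8.12 and 7.5 CPM in telocytes of the cecum and large intestine (18 and 124 UMIs), against 0 to 2.67 CPM in telocytes of the small intestine. Telocytes of the 2 parts lay in different clusters, 88.4% of the large bowel ones in 1 cluster of other fibroblasts and 73.8% of the small intestinal ones in the telocyte cluster. Telocytes exceeded trophocytes in Ngfr by 1.58 ± 0.39 (adjusted p = 0.0119), a call lost in the small intestinal libraries alone (adjusted p = 0.38), without the cecum (0.053), without the large intestine (0.066) and with clusters (0.543), which left out both.

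Of the ligands, Ntf3 and Gdnf differed from trophocytes in opposite directions in the glial gate, while Artn did not pass (adjusted p = 0.609). Glial Ntf3 was 7.59, 22.9, 29.1 and 64.0 CPM, lower than in trophocytes by the test (-0.88 ± 0.30, adjusted p = 0.0175) with overlapping ranges, and the call was lost in 6 alternatives. Gdnf was 10.1, 32.7, 8.32 and 0 CPM and came out higher than in trophocytes (2.22 ± 0.58, adjusted p = 0.00181), but not without proximal library 2 (1.47, adjusted p = 0.27), with limma-voom (0.111) or without the block (0.0542). The Gdnf UMIs of proximal library 2 came from 1 of its 34 glial cells. Ntrk3 (-5.10 ± 0.39, adjusted p = 6.26e-18) and Ntrk2 (-3.78 ± 0.68, adjusted p = 5.7e-06) were lower in glia, the latter not without the block (adjusted p = 0.181).

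Ret, the signaling receptor of the GDNF family, was not found in the glial gate. Its count was 0 in each of the 4 glial sums, which allows up to 7.59, 9.82, 12.5 and 21.3 CPM (3 UMIs of each sum, counting error only). Among the classes with at least 20 cells in a library, the one with the highest Ret was that of T and innate lymphoid cells, at 65.1 and 57.8 CPM in the proximal and 16.1 and 42.7 CPM in the distal libraries, on 37, 50, 8 and 19 UMIs. A Ret UMI was found in 5.43% to 14.7% of those cells, against at most 0.124% of lymphatic endothelial cells in the same libraries (median depths 4610 to 5300 and 5536.5 to 6749 UMIs). The gate on neuron markers, which caught collagen-high cells and is not described further, held 15 Ret UMIs in 16 cells. T and innate lymphoid cells gave 16.1% of the 707 Ret UMIs and were not among the tests. The larger classes of trophocytes (23.5%), other fibroblasts (22.1%) and universal fibroblasts (17.5%) gave more. The T and innate lymphoid cells carried no tdTomato UMI in any library.

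Counted over the 9 genes, the comparisons with trophocytes, which share their trophocyte sums, gave the following. In subepithelial cells 6 of the 7 genes that passed the filter on low counts differed, 2 higher and 4 lower, against 50.3% of all genes tested (25.5% higher and 24.8% lower). The median was -2.38 against 0.02 over all genes. In telocytes 6 of 7 differed, 3 each way (33.8% of all genes, 14.7% higher and 19.1% lower). In myofibroblasts 5 of 6 differed, 4 of them higher (44.7% of all genes, 21.7% higher and 22.9% lower, median 1.36 against -0.02). Glia had 6 of 7, 3 each way (26.8%, 11.6% higher and 15.2% lower), and pericytes 4 of 6, 2 each way (45.6%, 20.6% higher and 25.1% lower). Lymphatic endothelial cells had 6 of 7, all lower (70.2%, 31.3% higher and 38.9% lower, median -3.33 against -0.08). Between telocytes and subepithelial cells 4 of 5 differed, 3 higher and 1 lower in telocytes (14.8% of all genes, 7.1% higher and 7.67% lower), and the Ngfr call (1.40 ± 0.38, adjusted p = 0.0427) was lost in 6 of 12 alternatives. Members that failed the filter were Bdnf and Ret in subepithelial cells, telocytes, glia and lymphatic cells, and Ngfr, Gfra1 and Ret in myofibroblasts and pericytes. Between telocytes and subepithelial cells Bdnf, Ntrk2, Gfra1 and Ret failed it.

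**Figure D3:**
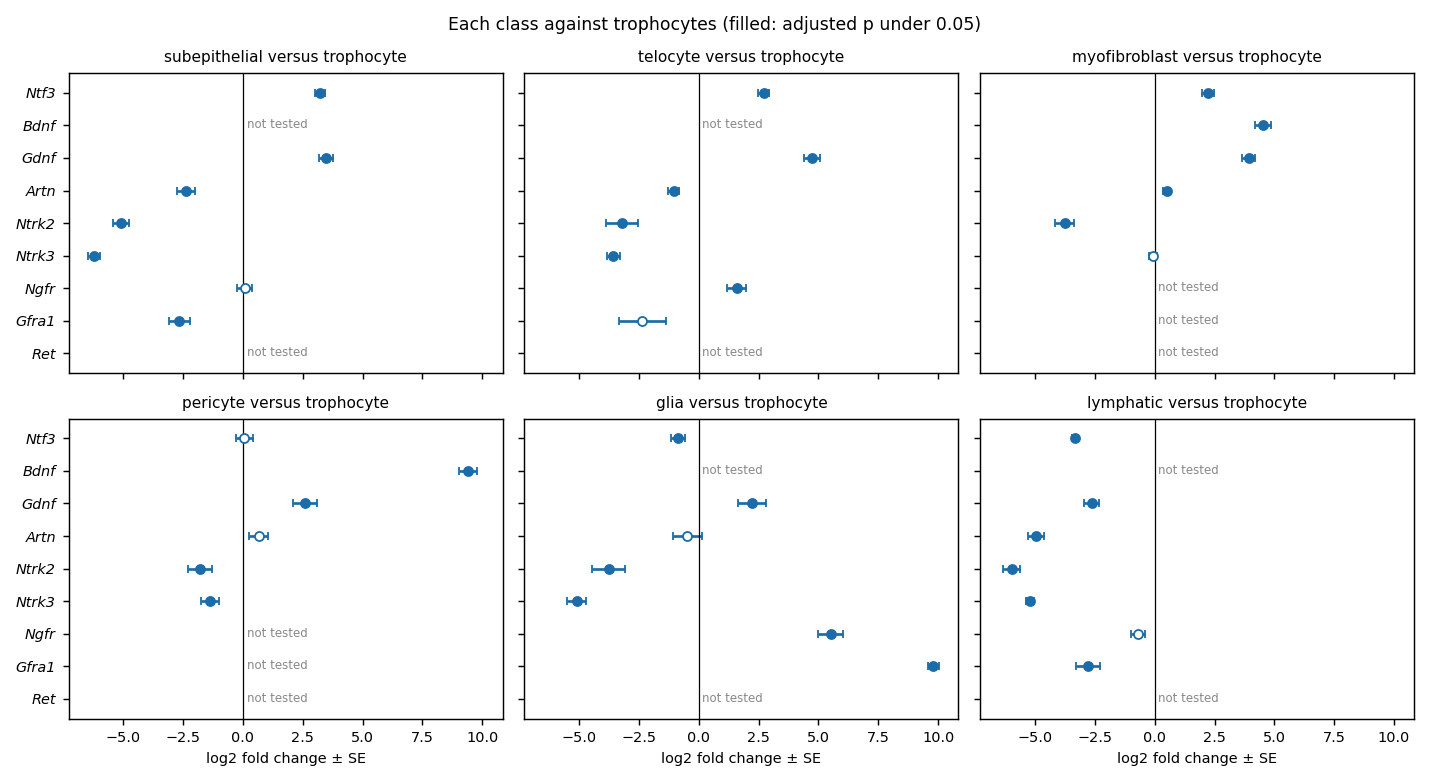
Log2 fold change of each gene in each class against trophocytes, with its SE, from edgeR's quasi-likelihood test on sums per library; filled points passed an adjusted p of 0.05. Ntf3 and Gdnf lay above 0 and Ntrk3 and Ntrk2 below 0 in subepithelial cells and telocytes, and Gfra1 reached 9.79 in glia.

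Along the small intestine no gene of the 9 passed the threshold between the proximal and the distal libraries, in subepithelial cells (8 tested, 0.00623% of all genes called) or in trophocytes (9 tested, 0.0922% of all genes called, 0.0461% in each direction). The unadjusted edgeR p was under 0.05 for Ntrk2, Ntrk3, Bdnf and Gfra1 in trophocytes and for Ntrk3 and Ngfr in subepithelial cells. The share of all genes under that unadjusted limit was not counted, so nothing is concluded from these. Trophocyte Ntrk2 was higher in the proximal libraries (2.02 ± 0.36 on the log2 scale, edgeR adjusted p = 0.158) and Ntrk3 was lower (-1.02 ± 0.21, adjusted p = 0.223), with no overlap for either. DESeq2 called both (adjusted p = 0.0208 and 4.74e-05) and none of the other genes in either class, while limma-voom called none. Ntrk2 passed in 6 of 12 alternatives, DESeq2, no filter, the replicate block and the omission of proximal library 1, proximal library 2 or distal library 1. Subepithelial Ntf3 was higher in both proximal libraries than in both distal ones (0.56 ± 0.26, edgeR adjusted p = 1), while Gdnf overlapped (0.14 ± 0.25, adjusted p = 1).

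**Figure D4:**
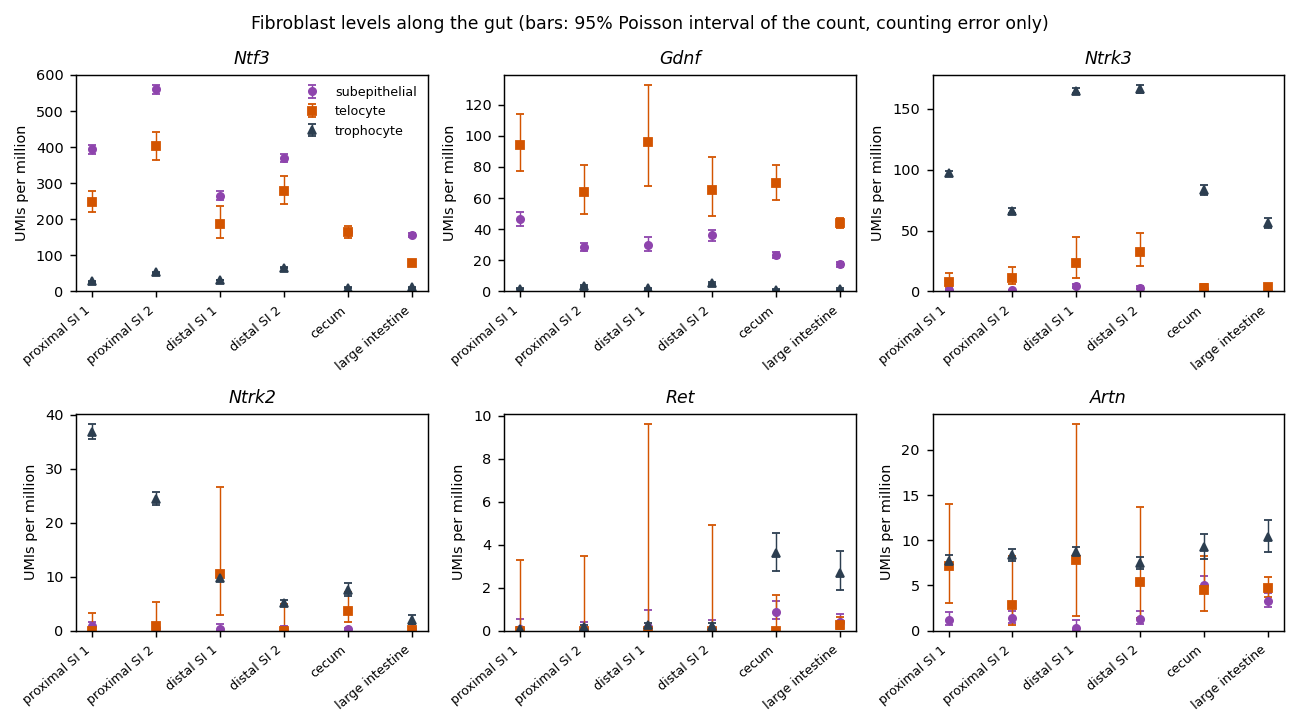
Levels of member genes in fibroblast classes, among them subepithelial cells and trophocytes (CPM), by region, with 1 point per library. Subepithelial Ntf3 stood at 394 and 560.1 in the proximal libraries and at 164 and 157 in the large bowel libraries, and trophocyte Ret stood at 3.6 and 2.69 in the large bowel against at most 0.245 in the small intestine.

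Between the large bowel and the small intestine, the comparison set 2 libraries against 4, and its residual spread came from the pairs of small intestinal libraries, since the cecum and the large intestine had 1 library each. In trophocytes 6 of the 9 genes passed (3 higher and 3 lower, against 29% of all genes tested, 13.6% higher and 15.4% lower) and in subepithelial cells, where Gfra1 was not tested, 4 of 8 (3 higher and 1 lower, against 39.3%, 21.9% higher and 17.3% lower). The median change of the genes tested was -0.70 in trophocytes against -0.09 over all genes, and 0.33 in subepithelial cells against 0.02. The summed level of the 5 trophocyte markers was also lower in large bowel trophocytes (2925 and 3125 CPM against 3535 to 3851 CPM), with 1 of the 5, Dkk2, below all small intestinal libraries and 1 above. In the same trophocyte sums the 7 pericyte markers summed to 66.6 and 142.7 CPM in the cecum and large intestine against 549.6 to 1219 CPM in the small intestine, although 5 of the 7 lay above all small intestinal libraries and 1 below. The 7 glial markers summed to 3.07 and 3.36 CPM against 3.50 to 4.32 CPM, with 4 of them below all small intestinal libraries and 1 above. The part of these markers in the changes below was not tested. The 6 subepithelial markers summed to 3294 and 4470.1 CPM in the large bowel against 1928 to 2387 CPM, 5 of them above all small intestinal libraries. The classes also lay in different clusters by region. Of small intestinal subepithelial cells 80.8% lay in a cluster that held no large bowel cell, and 68.3% of the large bowel ones in another. Large bowel trophocytes lay mainly in a cluster of other fibroblasts (36.4%), in a trophocyte cluster (31.9%) that held 2.02% of the small intestinal ones, and in the large bowel subepithelial cluster (21.0%). Clusters in place of the gate set largely different clusters of the 2 regions against each other, so that setting cannot tell region from kind of cell. In it each call below held, and Ntf3 gave -3.31 in trophocytes and -1.82 in subepithelial cells. Gdnf passed too by edgeR (-3.45, adjusted p = 0.0264, and -1.45, adjusted p = 0.00113). The clearest of the calls with the gate was Ret. Its trophocyte level was 0.0919, 0.154, 0.245 and 0.2 CPM in the small intestinal libraries and 3.6 and 2.69 CPM in the cecum and large intestine, on 7, 11, 30, 13, 69 and 36 UMIs. The groups did not overlap, and the difference was 4.29 ± 0.31 on the log2 scale (adjusted p = 0.000482). A Ret UMI was found in 1.96% and 1.84% of large bowel trophocytes against 0.0591% to 0.189% of small intestinal ones. Lymphatic endothelial cells had a Ret UMI in 2 of 236 cells of the cecum (0.847%) and in 0 of 266 cells of the large intestine. Median depths were 6383 and 9514 UMIs in trophocytes and 4629 and 7542.5 UMIs in lymphatic cells. The 5 markers of T and innate lymphoid cells, the class with the highest Ret, summed to 0.313 and 0.374 CPM in large bowel trophocytes and to 1.71 to 2.61 CPM in small intestinal ones; their part was not tested. Free RNA held 1.72 and 3.02 CPM of Ret in the large bowel libraries against 0.518 to 1.29 CPM in the others, so free RNA rose in the same direction, and the call held with free RNA subtracted.

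Ntf3 was lower in the large bowel in both classes, by -1.95 ± 0.38 in trophocytes (adjusted p = 0.0135) and -1.08 ± 0.23 in subepithelial cells (adjusted p = 0.0106), with no overlap of libraries in either. The subepithelial call was lost without proximal library 1 (-1.20, adjusted p = 0.069) or proximal library 2 (-0.95, adjusted p = 0.11). Ntrk2 (-1.91 ± 0.39, adjusted p = 0.0159) and Ntrk3 (-0.70 ± 0.19, adjusted p = 0.0354) were lower in large bowel trophocytes, and both ranges overlapped those of the small intestine. Ntrk3 lost its call without proximal library 1 (adjusted p = 0.11), with free RNA subtracted (0.053) and under a stricter gate (0.08), and Ntrk2 lost its call with limma-voom (0.061). Trophocyte Ngfr (1.29 ± 0.31, adjusted p = 0.0244) and Gfra1 (1.44 ± 0.34, adjusted p = 0.0236) were higher, at 2.03 and 1.42 CPM (Ngfr) and 2.24 and 1.5 CPM (Gfra1) in the cecum and large intestine, and neither overlapped the small intestine. Of these, Ngfr was no longer called with free RNA subtracted (0.065) and Gfra1 under a stricter gate (0.063). Free RNA held 2.46 and 5.03 CPM of Ngfr in the cecum and large intestine, above the trophocyte values.

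In subepithelial cells Artn (2.07 ± 0.40, adjusted p = 0.00705), Ngfr (1.85 ± 0.42, adjusted p = 0.0124) and Ret (2.65 ± 0.75, adjusted p = 0.0286) were higher in the large bowel. The 5 markers of T and innate lymphoid cells, where Ret was high, summed in subepithelial cells to 2.51 CPM in the cecum and 9.25 CPM in the large intestine against 1.48 to 4.11 CPM in the small intestine, with 1 of the 5 above all small intestinal libraries and 2 below, and their part in the Ret change was not tested. Artn stood at 5.01 and 3.32 CPM there against 0.342 to 1.40 CPM in the small intestine. Subepithelial Ret was 0.101, 0.0738, 0.171 and 0.0888 CPM in the small intestinal libraries, on 1 UMI each, and 0.882 and 0.398 CPM in the cecum and large intestine, on 19 and 9 UMIs. In the cecum and large intestine free RNA held 1.72 and 3.02 CPM of Ret and 2.46 and 5.03 CPM of Ngfr. These values lay above every subepithelial sum of the same gene (at most 0.882 and 2.26 CPM). In the small intestine free RNA held 0.518 to 1.29 CPM of Ret and 0.352 to 1.29 CPM of Ngfr. Artn in free RNA was 7.14 and 8.46 CPM in the cecum and large intestine and 5.52 to 9.22 CPM in the small intestine. These too lay above every subepithelial Artn sum. Subepithelial Ret could be tested in only 8 alternatives. Each of these 3 calls was lost without proximal library 1 (adjusted p = 0.073 for Artn, 0.064 for Ngfr and 0.091 for Ret). Without proximal library 2 Artn (0.089) and Ngfr (0.06) lost theirs, without distal library 2 Ngfr (0.051) and Ret (0.07) did, and DESeq2 did not call Ret (0.12). Gdnf was at 23.2 and 17.4 CPM in the large bowel, below every small intestinal library, but did not pass (-0.61 ± 0.22, adjusted p = 0.0581).

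**Figure D5:**
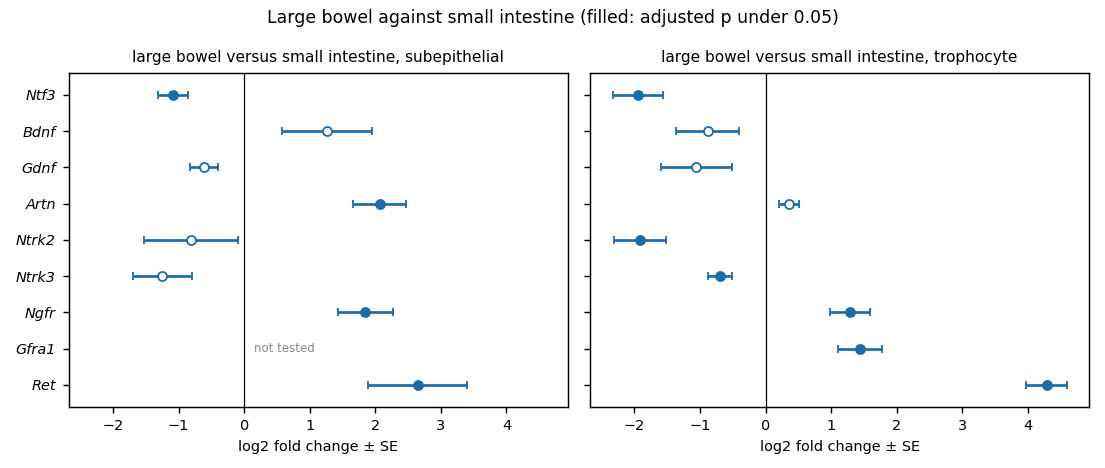
Log2 fold change, large bowel against small intestine, with SE, of each gene tested in subepithelial cells and in trophocytes; filled points passed an adjusted p of 0.05 in edgeR's quasi-likelihood test. Trophocyte Ret lay highest at 4.29 and trophocyte Ntf3 lowest at -1.95.

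Other genes of these pathways were counted from a list of 16 ligands, receptors and co-receptors. In subepithelial cells 6 of the 11 tested were below trophocytes and none above, against 50.3% of all genes called and 24.8% lower (median -0.67 against 0.02 over all genes). Among them were the sorting receptor gene Sort1 (-2.89), Gfra2, the co-receptor of neurturin (-2.81), Lingo1 (-1.45) and Sorcs2 (-0.67). Telocytes had 5 of 10, all lower (33.8% of all genes called, 19.1% lower). Glia had 8 of 12, 7 of them higher (26.8% of all genes called, 11.6% higher), led by Gfra3, the co-receptor of artemin (11.38 ± 0.64, 101 ± 54.2 CPM), Sorcs1 (10.41 ± 0.28, 1192 ± 396 CPM), Sort1 (4.57 ± 0.21) and Gfra2 (2.68 ± 0.18, 398 ± 81.1 CPM, SD, n = 4). The glial gate therefore held the co-receptors of GDNF, neurturin and artemin. Pericytes had 9 of 9, 5 of them higher (45.6% of all genes called), among them Sort1 (4.12) and Nrtn, which encodes neurturin (2.86). Myofibroblasts had 7 of 9, 4 of them higher (44.7% of all genes called). Lymphatic cells had 8 of 11, 3 of them higher with Sorcs1 foremost (7.23), which is near the 70.2% of all genes called. In the large bowel 6 of the 10 tested in subepithelial cells passed, 4 of them higher (39.3% of all genes called), and 5 of the 13 tested in trophocytes, 3 of them higher (29% of all genes called). Nrtn was higher in subepithelial cells (4.52 ± 0.30, adjusted p = 6.96e-05) and in trophocytes (2.96 ± 0.19, adjusted p = 0.000317). Gfra2 was higher in the former (1.86 ± 0.19) and lower in the latter (-1.17 ± 0.16), Sort1 was higher (1.47 ± 0.42) and Sorcs2 (-1.24 ± 0.19) and Sdc3 (-0.50 ± 0.15) lower in subepithelial cells, and Ncam1 was lower in trophocytes (-1.38 ± 0.22).

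Levels on the log2(CPM + 1) scale were compared over 85 sums of a library and a class, which share libraries and depth. Among genes with a mean of at least 5 CPM over these sums, Ntf3 followed Gdnf most closely (Pearson r = 0.826). It stood ahead of Tbx2 (0.803) and Foxf2 (0.788), both transcription factor genes. Ntf3 in turn was followed most closely by Fat4 (0.834), Prkd1 (0.833) and Dach1 (0.829). Gfra1 was followed by Ntng1 (0.893) and Ngfr by Grik3 (0.8), with S100b in the third place (0.785). S100b is a marker of the glial gate that set these sums apart, so its place is only a description. Bdnf was followed by Sctr, the secretin receptor gene (0.906). Ret was followed by Clnk (0.737) and Cd40lg (0.736), genes of lymphoid cells. Between a ligand and its receptor the values were low, at 0.000973 for Ntf3 and Ntrk3, 0.154 for Bdnf and Ntrk2 and -0.0139 for Gdnf and Gfra1.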

How the data were processed

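The authors sorted the cells, captured them in droplets with barcoded antibodies (hashtags), aligned the reads to a mouse mm39 reference that also held tdTomato, and deposited raw UMI counts for all barcodes. The counts are whole numbers and had not been filtered, corrected for ambient RNA or freed of doublets. The submitters' notes name Cell Ranger 8.1.0, while the matrices name another version.

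The cell limits of the methods were applied: 1000 to 7500 genes, 2500 to 40000 UMIs, and a mitochondrial share below 10%. The study's further removal of clusters with too few tdTomato+ cells was not applied. Doublets were removed with Scrublet in scanpy at 0.8% expected per 1000 cells, in place of DoubletFinder, which removed 4.91% to 11.4% of cells per library, and SoupX was not run. For the gate each marker's log-normalized value was scaled to its 0.999 quantile, a class score was the mean over its markers, and a cell took the class with the highest score if that was at least 0.15 and led by 0.05, limits set after the cells had been seen. Collagen-high cells without a class were called other fibroblasts (score of at least 0.3). Cells of the pericyte gate with more than 1 Pdgfra UMI were set apart, a limit set after the data had been seen. The alternative with no limit on Pdgfra is the gate without that step. The gates for interstitial cells of Cajal, neurons and mesothelium caught collagen-high cells and are not described.

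UMIs were summed per library and class with at least 20 cells. Genes were filtered by filterByExpr (minimum count 10) and tested by edgeR's quasi-likelihood test with TMM scaling and Benjamini-Hochberg adjustment over all genes tested at 0.05, with library as a block between classes and with the 4 regions as groups, without a block, between regions. SEs were obtained as the absolute log2 fold change over the root of edgeR's F. The main edgeR fit of each comparison was also run once on simulated counts with 200 changed genes and no library effect. The alternatives, including the tests added later, were not simulated. Alternatives were DESeq2, limma-voom, no filter, removal or addition of a block, omission of single libraries, small intestinal libraries alone, subtraction of free RNA (10% of a sum, profile from barcodes with at most 100 UMIs), no doublet removal, clusters in place of the gate, a stricter gate (0.2 and 0.1) and, added after the data had been seen, no limit on Pdgfra and a test of the difference between large bowel and small intestine.

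All 9 genes are named, as are genes of a list of 16 pathway genes that passed a test (some items are not reported here), and the genes most like a member by Pearson correlation. The 9 genes and the lists were chosen with earlier results of these data known. Intervals and upper limits from counts cover counting error only. Overlapping genes on the same strand, found for Ntrk2 (1), Ntrk3 (2) and Ngfr (1), could share reads with them. Promoter sequences were read from GRCm39 with the GENCODE annotation. Versions were edgeR 4.0.16, limma 3.58.1 and DESeq2 1.42.0 in R 4.3.3, and scanpy 1.11.5, leidenalg 0.10.2, pandas 2.3.3, scipy 1.17.1, numpy 2.4.6 and matplotlib 3.10.9 in Python 3.11.15.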

Additional observations from a re-analysis of the deposited data

Results flagged for a closer look

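Artn was the member whose difference between subepithelial cells and trophocytes itself differed between the large bowel and the small intestine. Artn was lower in subepithelial cells by -3.01 ± 0.26 on the log2 scale (SE) in the small intestine and by -1.41 ± 0.29 in the large bowel. These differ by 1.60 ± 0.40 (edgeR's quasi-likelihood test of the interaction, Benjamini-Hochberg adjusted p = 0.0415, a test added after the values had been seen). In the same test 15.4% of all genes passed. Of the 7 members tested Artn was the only one that did, which is near that share, so it is not read as a result about the members. Ntf3 gave 0.75 ± 0.34 (adjusted p = 0.191). The interaction was tested in 1 setting only. The call of higher subepithelial Artn in the large bowel was lost in 2 of 11 alternatives. The subepithelial Artn sums of the small intestine held 0.342 to 1.40 CPM, and the cecum and large intestine had 1 library each. Free RNA held 5.52 to 9.22 CPM of Artn over all libraries, above every subepithelial sum. No group had enough libraries for a test of single outlying samples.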

How the results depend on the processing

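Of the 79 comparisons of a member that were tested, 47 passed, and 29 of these passed under every alternative run. Of the 32 that did not pass, 13 passed in the same direction under some alternative. Counts of all genes called moved as follows. Without the library block, subepithelial cells against trophocytes gave 4510 genes in place of 7735 and telocytes against subepithelial cells 928 in place of 2019; for the latter clusters, which also left out both large bowel libraries, gave 3090 (2514 from small intestinal libraries with the gate), and leaving out a library gave 1279 to 2254. For proximal against distal subepithelial cells the count of 1 became 52 with DESeq2, 0 with limma-voom or free RNA subtracted, 225 with no filter, 5 with clusters, 2 with the stricter gate and 0 without any 1 library. For trophocytes 18 became 338 with DESeq2, 6 with limma-voom, 126 with no filter, 11 with free RNA subtracted, 8 with clusters and 50 to 205 without a library. The replicate block gave 265 and 849 genes and called trophocyte Ntrk2, Ntrk3, Bdnf and Gfra1 and subepithelial Ntrk3; the labels do not say that replicate numbers pair libraries, and same-numbered libraries deviated together with r = 0.307 and 0.344 over only 2 pairs. Large bowel against small intestine gave 6301 genes in subepithelial cells, 1209 without proximal library 2 and 1783 without proximal library 1 (up to 7251), and 5660 in trophocytes, 3580 without proximal library 1 (up to 8428). Signs turned, on the log2 scale, for Ngfr in subepithelial cells against trophocytes (clusters -0.55, without a library -0.19 to 0.23), Ntrk3 in myofibroblasts (without a library -0.25 to 0.04), and in pericytes Artn (no Pdgfra limit -0.40), Ntf3 (DESeq2 -0.08, limma-voom -0.05, no filter -0.06, free RNA subtracted -0.08, no doublet removal -0.0036, no Pdgfra limit -0.84 with an adjusted p of 0.0108, without a library -0.49 to 0.43) and Ntrk3 (clusters 0.02, no Pdgfra limit 0.09). Between proximal and distal libraries they turned for subepithelial Artn (stricter gate -0.08, without a library -0.03 to 1.86), Ret (clusters 0.55) and Gdnf (without a library -0.26 to 0.47) and for trophocyte Artn (free RNA subtracted 0.0023, without a library -0.18 to 0.15), Ntf3 (without a library -0.78 to 0.29) and Gdnf (without a library -1.10 to 0.30). In the large bowel clusters turned subepithelial Bdnf (-0.31) and Ntrk3 (0.24) and trophocyte Bdnf (0.14). The cause of these changes was not tested. Of these results only Ntrk3 in pericytes had passed. Depth limits Ret and Ngfr most, with 707 and 953 UMIs in all kept cells.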

Other observations

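Ret was also found in classes that no comparison covered. Universal fibroblasts held 3.12 and 5.14 CPM of Ret in the cecum and large intestine against 0 to 2.08 CPM in the small intestine, and gave 17.5% of its UMIs. Blood endothelial cells held 2.07 to 6.20 CPM of Ret in the 5 libraries with at least 20 such cells. In Pdgfra+ Rgs5+ stromal cells Ngfr had no UMI in any library. Sorcs1, a sorting receptor gene, averaged 95.5 CPM in lymphatic endothelial cells, with a range of 7.36 to 173 CPM.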
